A study of Homo sapiens with 4 samples.

Results

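Immune checkpoint ligands were followed here as targets of Flag-tagged FLI1: CD274, PDCD1LG2, CD276, VTCN1, HHLA2, LGALS9, PVR, NECTIN2, CD80 and CD86, which are 10 of 20033 protein-coding genes in GENCODE 44. For each gene, every deposited peak within 3 kb of the start site of an annotated transcript (TSS), in the gene body, or within 50 kb of the gene was taken. This gave 29 of the 30819 peaks of the control library and 33 of the 39654 peaks of the IFN-γ library. The peaks came from chromatin immunoprecipitation and sequencing (ChIP-seq) with an antibody to Flag in HK1, an established cell line of nasopharyngeal carcinoma. Both groups carried the FLI1 overexpression, and only the overexpressed, tagged protein is seen in these peaks. The control group received PBS and the other group IFN-γ for 24 h, with 1 library per condition. There were therefore no replicates, no comparison below is a test of the treatment, and a difference between the libraries cannot be told apart from one between preparations. Inputs are not analysed here.

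Checkpoint ligands are surface or secreted proteins through which tumor and antigen-presenting cells dampen, or in some cases support, T cell activity. CD274 encodes PD-L1 and PDCD1LG2 encodes PD-L2, the ligands of the T cell receptor PD-1, and CD274 is a textbook target of IFN-γ signalling. FLI1 belongs to the ETS family of transcription factors, whose DNA sites share the core GGAA.

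At promoters, Flag-FLI1 peaks were called at 6 of the 10 genes in the control library (PDCD1LG2, CD276, PVR, NECTIN2, CD80 and CD86) and at 7 after IFN-γ, where CD274 was added. With the IFN-γ list shortened to the length of the control list, the IFN-γ count was 4, without CD274, NECTIN2 and CD80. Over all protein-coding genes the shares were 61.9% and 59.7%. In both libraries together, 6 of the 10 genes were called, against 56.0% of coding genes, so the checkpoint ligands as a group stood close to the background. VTCN1, HHLA2 and LGALS9 had no promoter peak in either library. Ranked by the ratio between libraries, separately at promoters and elsewhere, the values farthest from those of other shared peaks were at single sites. The IFN-γ library had a stronger PDCD1LG2 promoter peak, stronger flank peaks of CD276 and PVR, and a weaker CD276 promoter peak. Among shared peaks of similar pileup, the PVR flank peak stood only at percentile 85.1.

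The sequences at the summits of 6 of these peaks are shown because the comparisons below turn on them. The windows upstream of CD274 and in the flanks of CD276 and PVR were chosen after their values were seen. All are from GRCh38, plus strand, 5′ to 3′, within 100 bp of the summit. Capitals mark the ETS core GGAA (TTCC on the other strand) and TGANTCA, the motif of AP-1 (N is any base), and these letters cannot overlap each other. The PDCD1LG2 promoter window is chr9:5509755-5509955 and the window upstream of CD274 is chr9:5446914-5447114. In both, an ETS core stood 1 base before an AP-1 motif.
PDCD1LG2 promoter, IFN-γ summit: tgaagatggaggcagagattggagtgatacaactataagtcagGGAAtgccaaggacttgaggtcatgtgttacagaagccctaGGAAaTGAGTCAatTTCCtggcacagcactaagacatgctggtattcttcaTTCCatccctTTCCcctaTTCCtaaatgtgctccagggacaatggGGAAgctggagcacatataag
CD274 upstream, IFN-γ summit: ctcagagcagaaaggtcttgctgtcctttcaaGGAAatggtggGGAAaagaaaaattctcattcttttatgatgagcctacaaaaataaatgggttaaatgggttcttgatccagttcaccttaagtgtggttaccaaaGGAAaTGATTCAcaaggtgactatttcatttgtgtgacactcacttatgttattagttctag
The window at the CD274 TSS (chr9:5450406-5450502) was cut to the 97 bases before the first annotated exon. That at the CD276 promoter (chr15:73684196-73684268) was cut to 73 bases outside annotated exons, and held no ETS core in this stretch.
CD274 TSS, IFN-γ summit: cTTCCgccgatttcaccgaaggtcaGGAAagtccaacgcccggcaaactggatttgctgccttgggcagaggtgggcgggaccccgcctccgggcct
CD276 promoter, control summit: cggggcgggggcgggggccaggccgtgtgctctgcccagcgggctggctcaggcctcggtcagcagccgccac
The strongest flank peaks of CD276 (chr15:73650939-73651139) and PVR (chr19:44685153-44685353) each held 1 AP-1 motif.
CD276 flank, IFN-γ summit: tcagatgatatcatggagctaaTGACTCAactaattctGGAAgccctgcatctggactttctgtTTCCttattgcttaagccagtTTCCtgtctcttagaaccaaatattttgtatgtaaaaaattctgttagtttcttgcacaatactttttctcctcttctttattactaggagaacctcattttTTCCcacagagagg
PVR flank, IFN-γ summit: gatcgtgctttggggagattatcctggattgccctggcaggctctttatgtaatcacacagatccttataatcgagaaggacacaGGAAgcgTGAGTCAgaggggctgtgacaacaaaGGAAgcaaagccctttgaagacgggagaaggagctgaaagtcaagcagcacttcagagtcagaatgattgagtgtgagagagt

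The strength of a peak is given as the fragments piled up at its summit and as fold enrichment over the local background, and its place among all peaks of its library by −log10 p. The lowest pileup called was 6 fragments in control cells and 7 after IFN-γ, and the median peak held 16 and 22. The IFN-γ library was 1.46 times deeper by its lowest background. Ratios between libraries were divided by this value and carry exact 95% intervals, which cover counting error only and are not adjusted over the 22 distinct pairs.

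**Figure D1:**
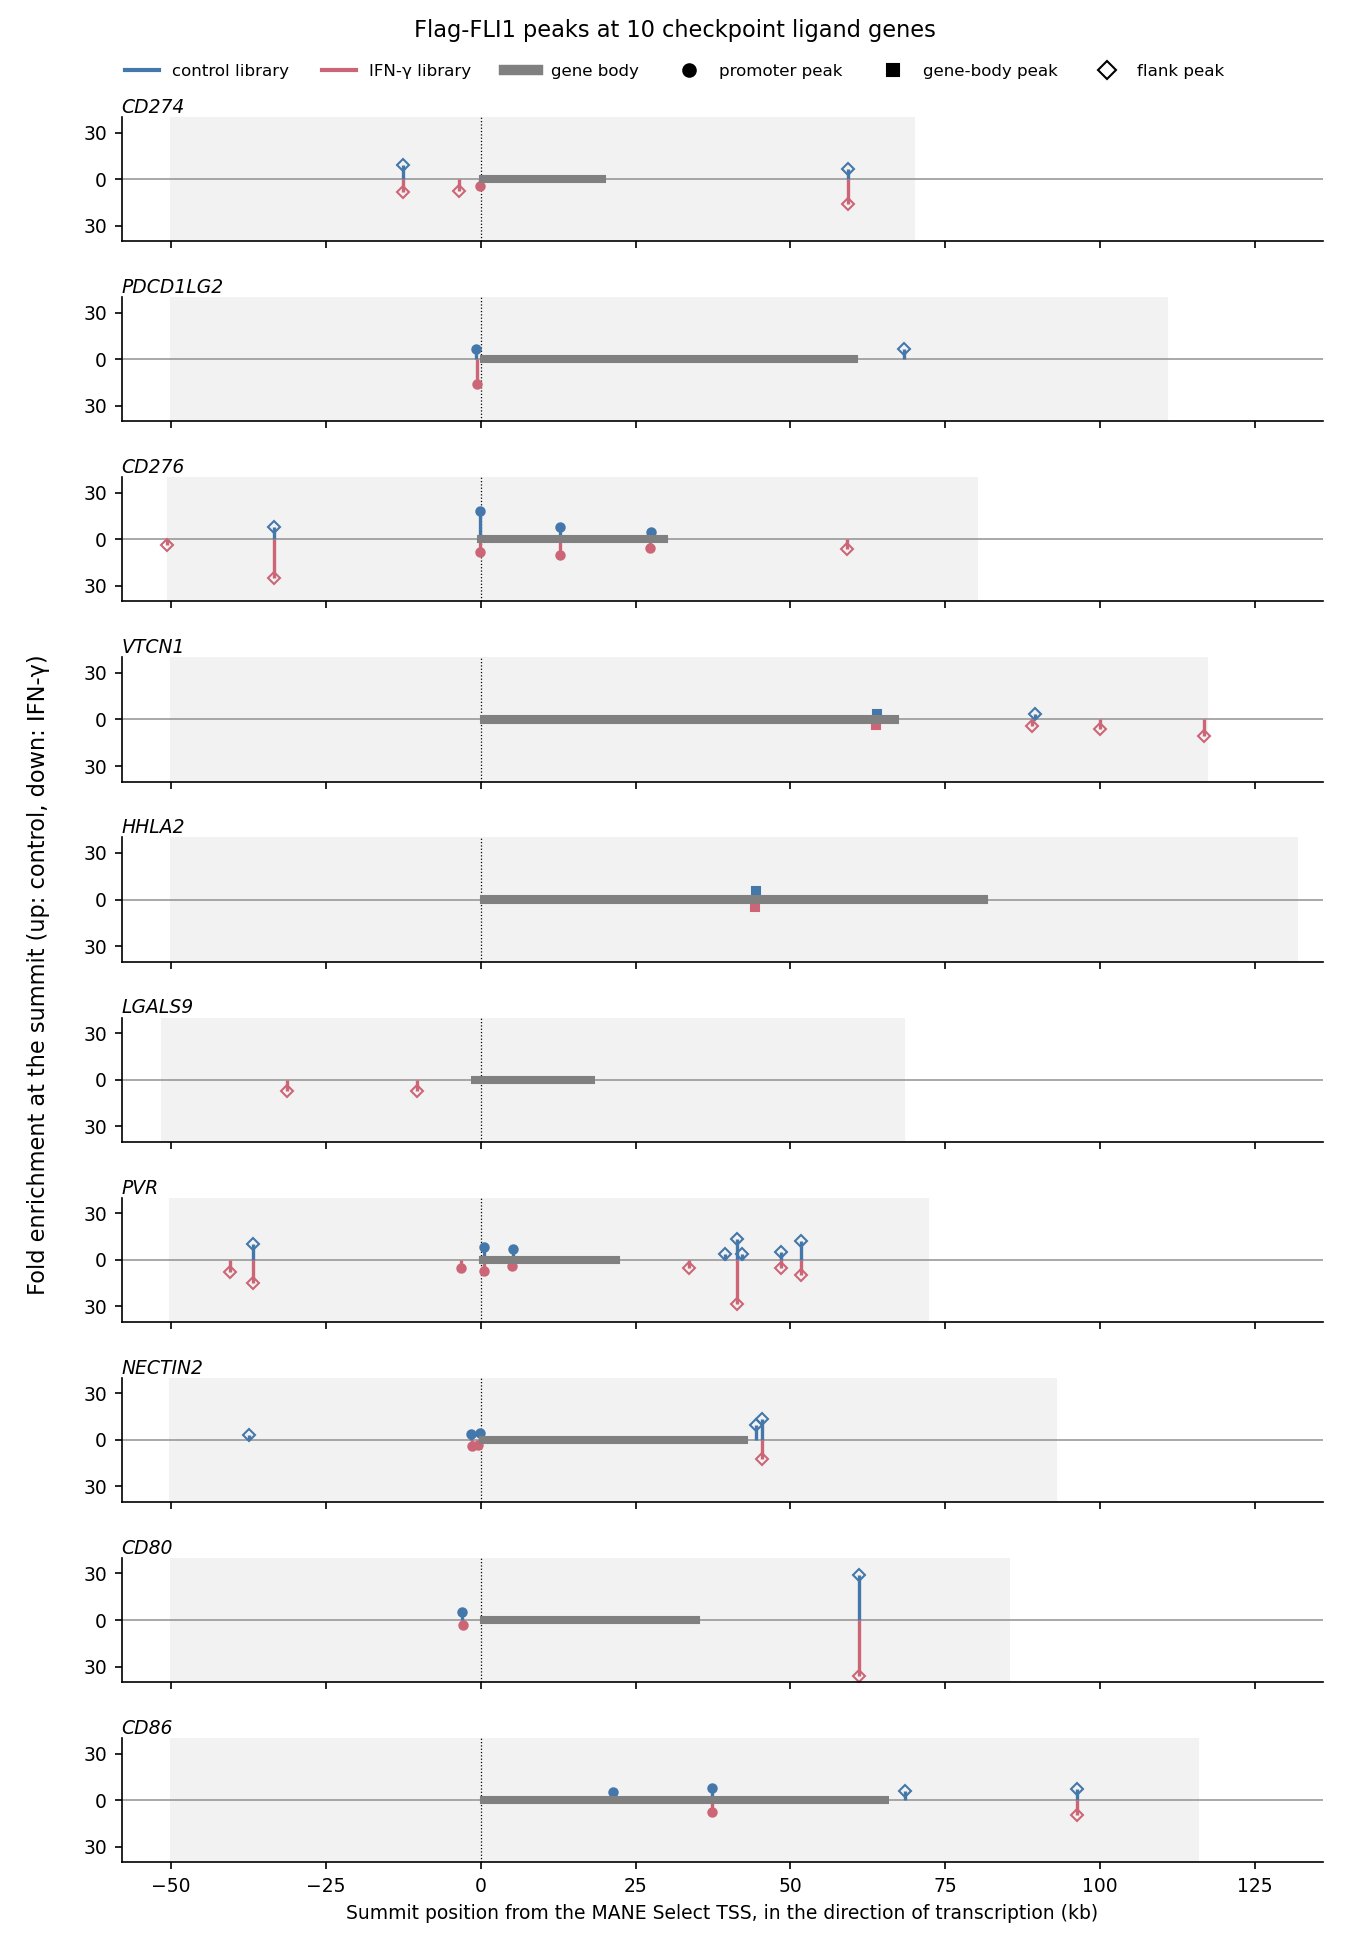
Each line is a Flag-FLI1 peak, placed by the distance of its summit from the main (MANE Select) TSS in kb, with fold enrichment upward for the control library and downward for the IFN-γ library. Grey bars are gene bodies, shading is the 50 kb window, and promoter peaks can lie inside a gene at alternative TSSs. CD274 has promoter signal in the IFN-γ library alone, LGALS9 has flank peaks in that library alone, and the tallest lines near CD276, PVR and CD80 are in the flanks.

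Of the PD-1 ligand genes, PDCD1LG2 was called at its promoter in both libraries, with more fragments after IFN-γ. Its promoter peak, 0.722 kb upstream of the only annotated TSS, held 14 fragments over a background of 1.34 in the control library (fold enrichment 6.41) and 40 over 1.54 in the IFN-γ library (fold enrichment 16.2). It lay in the top 57.2% of control peaks and in the top 15.4% of IFN-γ peaks. At equal depth the IFN-γ to control ratio was 1.96 (95% interval 1.05 to 3.90), at percentile 96.0 of 13684 promoter pairs called in both libraries. The median ratio of those promoter pairs was 0.887, and 3.70% of them were at least 2 times higher in the IFN-γ library. The summits in the 2 libraries were 46 bp apart. A second PDCD1LG2 peak, 68.3 kb downstream of the TSS and past the end of the gene, was called in the control library only, with 13 fragments.

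CD274 had no promoter peak in the control library. In the IFN-γ library a weak peak sat at its TSS, with the summit 0.036 kb upstream of the main start, 11 fragments over a background of 1.54 and fold enrichment 4.73. It lay in the top 82.8% of that library's peaks. At the depth of the control library those 11 fragments correspond to 7.55 (95% interval 3.77 to 13.5), next to the lowest control pileup called, 6, so the absence of a control peak does not show a difference in binding at this depth. A stronger peak of the IFN-γ library lay 3.53 kb upstream of CD274, just outside the 3 kb promoter limit, with 21 fragments over 1.77 and fold enrichment 7.94. It corresponds to 14.4 fragments at control depth (95% interval 8.93 to 22.0), and 41.9% of control peaks had a lower pileup than that. No control peak overlapped it, which was also so for 53.0% of all IFN-γ peaks outside promoters.

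CD274 and PDCD1LG2 are neighbours on chromosome 9, with 39.965 kb between the gene ends, so the PDCD1LG2 promoter peak also lay within 50 kb of CD274, at 59.3 kb from its TSS. The remaining peak of CD274, 12.6 kb upstream at the promoter of PLGRKT, held 21 fragments in the control and 28 in the IFN-γ library, with a ratio of 0.916 (95% interval 0.502 to 1.70). In this stretch of chromosome 9, a weak peak at the CD274 TSS and the peak 3.53 kb upstream were called with IFN-γ alone. The PDCD1LG2 promoter had more fragments with IFN-γ, and the interval at the PLGRKT promoter included 1. The peak past the end of PDCD1LG2 was called in the control library alone, with 13 fragments.

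CD276 encodes B7-H3, a B7-family ligand found on many carcinomas. Its promoter peak was the strongest control promoter peak of the 10 genes and the one whose ratio was lowest. It held 48 fragments over 1.71 in the control library (fold enrichment 18.0, top 8.59% of peaks) and 28 over 2.48 in the IFN-γ library (fold enrichment 8.34, top 34.95%). The ratio at equal depth was 0.401 (95% interval 0.242 to 0.652), at percentile 1.38 of promoter pairs, of which 5.97% were at least 2 times lower in the IFN-γ library. The direction was opposite to that of PDCD1LG2, and the intervals of the 2 ratios did not overlap. Inside the gene, a peak in intron 1 held 21 and 37 fragments (ratio 1.21, 95% interval 0.690 to 2.18). Its control summit lay 12.9 kb from the main TSS and 2406 bp from an alternative TSS. A further peak in intron 9, 27.5 kb from the main TSS, held 9 and 14 fragments (ratio 1.07, 95% interval 0.431 to 2.80). The interval of the main promoter lay below that of the intron 1 peak, without overlap, and overlapped that of the intron 9 peak.

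In the flank of CD276, a peak 33.4 kb upstream held 19 fragments over 1.43 without IFN-γ and 79 over 2.21 with it (fold enrichments 8.23 and 24.9). Its ratio was 2.86 (95% interval 1.71 to 4.99), the highest of the 22 pairs and at percentile 97.8 of 9807 pairs outside promoters. The median of those pairs was 1.24, above that of promoter pairs, and 12.9% of them were at least 2 times higher in the IFN-γ library. Among pairs of similar pileup the CD276 flank peak was at percentile 94.5. The nearest coding gene to it is NPTN, so the peak cannot be assigned to CD276 by distance. The IFN-γ library held 2 more flank peaks of CD276, with 18 and 19 fragments. Their summits lay 367 bp from a TSS of NPTN and 2837 bp from a TSS of INSYN1. The former overlapped a control peak that ended beyond the 50 kb limit.

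The B7-family genes CD80, CD86, VTCN1 and HHLA2 had weaker promoter or gene body peaks than the main CD276 promoter peak of the same library. In the IFN-γ library the PDCD1LG2 promoter peak was stronger than that of CD276 (40 against 28 fragments). CD80 and CD86 encode the ligands of CD28 and CTLA-4 and are best known from antigen-presenting cells. The CD80 peak lay at the edge of the promoter window, with summits 3.03 kb and 2.80 kb upstream of the TSS in the control and IFN-γ libraries. It held 10 and 17 fragments, with fold enrichments of 5.35 and 3.43, and its ratio was 1.17 (95% interval 0.505 to 2.85). Fold enrichment and scaled pileup pointed in opposite directions here, with a local background of 1.06 in the control and 4.25 in the IFN-γ library. A far stronger peak in the CD80 flank, with 81 and 117 fragments (ratio 0.992, 95% interval 0.741 to 1.33), sat at the promoter of TIMMDC1 and was nearly equal in the libraries at equal depth.

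CD86 had no peak within 3 kb of its main TSS. It was counted among the promoter calls through alternative starts: a peak in intron 2, 37.3 kb from the main TSS and 1030 bp from the TSS of another coding transcript, held 20 fragments in the control and 25 in the IFN-γ library (ratio 0.859, 95% interval 0.458 to 1.63). An intron 1 peak 21.3 kb from the main TSS was called in the control library only, with 11 fragments. In the flank, a peak 96.3 kb from the TSS, nearest to the coding gene CASR, held 20 and 42 fragments (ratio 1.44, 95% interval 0.828 to 2.59), and one 68.6 kb from the TSS was called in the control library only with 13. None of the CD86 pairs had an interval that left out 1.

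VTCN1 and HHLA2, which encode the B7-family members B7-H4 and B7-H7, were marked inside the gene and not at the start. The VTCN1 peak in intron 5, 64.0 kb from the TSS, held 10 fragments in the control and 15 in the IFN-γ library (ratio 1.03, 95% interval 0.433 to 2.56). It was among the weakest peaks of both lists, in the top 97.0% and the top 90.0%. Its summits in the 2 libraries were 271 bp apart, so the ratio compares different positions. The strongest VTCN1 flank peak, 117 kb from the TSS, lay at the promoter of TTF2, 1212 bp from a TSS of that gene. It was called in the IFN-γ library only with 48 fragments (33.0 at control depth, 95% interval 24.3 to 43.7). Of the control peaks, 83.2% had a lower pileup than that. It is the single-library peak of the 10 genes whose depth-scaled pileup stood farthest above the calling limit. Of all promoter peaks in the IFN-γ library, 23.1% had no control partner. The strongest control flank peak of VTCN1, at the TRIM45 promoter, held 10 and 11 fragments, at summits 492 bp apart.

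The HHLA2 peak in intron 2, 44.4 kb from the TSS, held 10 fragments in the control and 11 in the IFN-γ library (fold enrichments 5.35 and 4.73, ratio 0.755, 95% interval 0.291 to 1.98). It was the only peak of HHLA2 within 50 kb in both libraries, and its interval included 1.

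LGALS9 encodes galectin-9, a secreted lectin and a ligand of TIM-3. It was the only one of the 10 genes without any control peak within 50 kb, against 85.8% of coding genes with one in that library (9 of the 10 genes and 84.3% of coding genes had one in both). In the IFN-γ library, where 88.8% of coding genes had a peak within 50 kb, LGALS9 had 2, at 31.2 kb and 10.3 kb upstream. Both lay at promoters of KSR1, with summits 1329 bp and 117 bp from a TSS of that gene. They held 19 and 21 fragments, and the latter corresponds to 14.4 at control depth (95% interval 8.93 to 22.0). LGALS9 has near-identical copies on the same chromosome, LGALS9B and LGALS9C, which had no peak within 50 kb in either library. Since reads from such copies can be discarded or misplaced, the absence of peaks in the gene itself is uncertain.

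PVR and NECTIN2 encode CD155 and CD112, the nectin-family ligands of TIGIT and DNAM-1. PVR had more peaks within 50 kb than the other 9 genes, 8 in the control and 9 in the IFN-γ library, where the median over the 10 genes was 2 and 2.5 and that over all coding genes was 3 in both. The peak just inside PVR, 0.513 kb from the TSS in intron 1, held 16 fragments in the control and 24 in the IFN-γ library (fold enrichments 8.27 and 7.19, ratio 1.03, 95% interval 0.525 to 2.08). A peak in intron 2, near an alternative TSS, held 13 and 15 fragments (ratio 0.792, 95% interval 0.352 to 1.81). A peak 3.15 kb upstream of the main TSS, within 3 kb of an outer TSS only by its edge, was called in the IFN-γ library alone with 17 fragments. At the PVR promoter the pairs thus showed no difference beyond counting error.

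The strongest PVR flank peak, 41.3 kb from the TSS and nearest to CEACAM19, differed. It held 26 fragments over 1.06 without IFN-γ and 91 over 2.25 with it, with fold enrichments of 13.1 and 28.3, and lay in the top 19.6% and the top 3.48%. Its ratio was 2.40 (95% interval 1.54 to 3.87), at percentile 94.5 of pairs outside promoters and at percentile 85.1 among those of similar pileup. The other PVR flank pairs, 36.7 kb upstream and 48.4 and 51.6 kb downstream of the TSS, had ratios of 1.21, 0.951 and 0.824, each with an interval that included 1.

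By −log10 p, NECTIN2 had the weakest promoter signal of the genes called in both libraries, while CD80 had fewer control fragments and a lower IFN-γ fold enrichment. Its control peaks, 1.54 kb and 0.038 kb upstream of the TSS, held 10 and 13 fragments, and the overlapping IFN-γ peaks, 1.46 kb and 0.397 kb upstream, held 13 and 12. The ratios were 0.893 (95% interval 0.362 to 2.27) and 0.634 (95% interval 0.264 to 1.51). The stronger of the peaks lay only in the top 77.9% of control peaks and the top 91.1% of IFN-γ peaks. The strongest flank peak of NECTIN2, at the promoter of TOMM40, held 29 and 42 fragments and its ratio was 0.995 (95% interval 0.605 to 1.66).

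**Figure D2:**
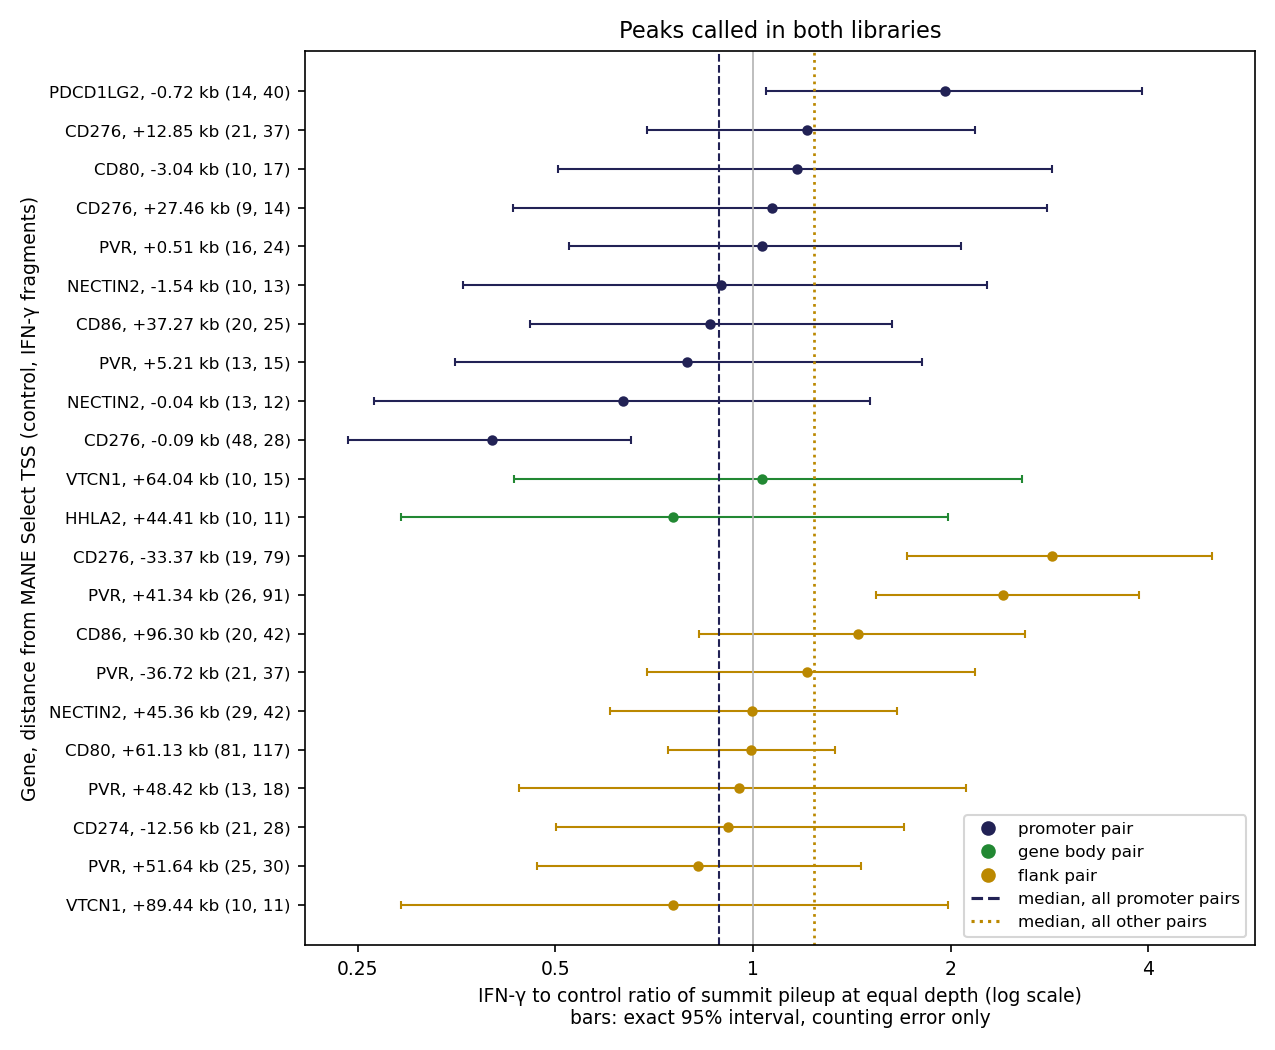
Points are the IFN-γ to control ratios of summit pileup at equal depth for the 22 pairs of peaks called in both libraries, on a log axis, with exact 95% counting intervals. The numbers in brackets are fragments in the control and IFN-γ libraries. PDCD1LG2 (1.96), the CD276 flank (2.86) and the PVR flank (2.40) lie wholly above 1 and the CD276 promoter (0.401) wholly below it.

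Over the 22 distinct pairs, the median ratio was 0.993, against 1.01 for all 23491 pairs of the series. The 10 promoter pairs had a median of 0.962 and ranged from 0.401 to 1.96, and the 10 flank pairs had a median of 0.993 and ranged from 0.755 to 2.86. The interval lay above 1 in 3 pairs and below 1 in 1 pair, and it included 1 in the rest. The share of all pairs with such an interval is not given here, so these counts cannot be set against the series. No promoter pair reached a ratio of 2 and 1 of 10 was at 0.5 or lower, against 3.70% and 5.97% of all promoter pairs. Of the 10 flank pairs, 4 lay at the promoters of PLGRKT, TRIM45, TOMM40 and TIMMDC1 and neither reached 2 nor fell to 0.5. Of the other 6 flank pairs, 2 reached 2 and none was at 0.5 or lower, against 12.9% and 1.35% of all pairs outside promoters. The ratios did not lie on one side of 1 over the 9 genes with a pair (LGALS9 had none).

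Sharing of peaks between the libraries was near that of the whole lists. Of the 29 control peaks 23 overlapped an IFN-γ peak (79.3%, exact 95% interval 60.3 to 92.0, against 77.5% of all control peaks), and 23 of the 33 peaks with IFN-γ had a control partner (69.7%, 51.3 to 84.4, against 61.0%). By position, 11 control peaks were at promoters, 2 in gene bodies and 16 in flanks, and the IFN-γ peaks numbered 12, 2 and 19. At promoters, 1 control and 2 IFN-γ peaks had no partner, against 20.5% and 23.1% of all promoter peaks. In the flanks, 5 and 8 had none, against 25.1% and 53.0% of all peaks outside promoters, although 6 and 10 of these flank peaks lay within 3 kb of a TSS of another coding gene. Counted without regard to promoters, 6 of the 10 genes had a peak overlapping the gene body in each library, against 64.8% and 63.9% of coding genes, and 5 did so in both (58.7%).

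The summit sequences were then compared with those of all peaks. The FLI1 octamers CAGGAAGT and CCGGAAGT, searched on both strands, were found near 4 of 29 summits (control) and 3 of 33 (IFN-γ), against 12.8% and 13.5% of all summits. All of these were in flanks, at PVR, NECTIN2 and CD80 (control) and at VTCN1, NECTIN2 and CD80 (IFN-γ), and none of the 13 control or 14 IFN-γ peaks in promoters or gene bodies held one. The NECTIN2 and CD80 matches lay at the promoters of TOMM40 and TIMMDC1, and the VTCN1 match near TTF2. The PVR match was in a peak of 7 fragments called in the control library only. The 4-base core GGAA, which the octamers contain, was near 28 of 29 and 33 of 33 summits, but it was also near 96.1% and 97.9% of all summits. The peak without it was a control peak of 6 fragments in the NECTIN2 flank. A run of 4 or more GGAA units was near 1 summit in each library, against 6.94% (control) and 10.8% (IFN-γ) of all summits. In each library this was the HHLA2 peak in intron 2, with 10 units in a row.

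The AP-1 motif TGANTCA was near 9 of 29 summits (control) and 12 of 33 (IFN-γ), against 17.7% and 22.1% of all peaks. In promoters or gene bodies it was found at PDCD1LG2, CD276 (intron 1) and CD86 (both peaks) in the control library, and at PDCD1LG2, CD276 (intron 1), VTCN1, PVR (intron 2) and CD86 in the IFN-γ library. The joint motif of GGAA, any base and then TGANTCA, which contains both motifs by construction, was looked for after the PDCD1LG2 and CD274 sequences had been seen. It was near 1 control summit (PDCD1LG2) and 3 IFN-γ summits (PDCD1LG2, the site upstream of CD274 and the VTCN1 flank near TTF2), against 1.70% and 2.40% of all peaks.

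Of the motifs linked to interferon signalling, TTCNNNGAA, the GAS element, was near 2 control and 6 IFN-γ summits, against 5.33% and 6.38% of all peaks. The control summits were the PVR peak in intron 1 and a NECTIN2 flank peak near TOMM40. The IFN-γ summits were both CD274 sites, 2 promoter peaks of PVR (including intron 1), the HHLA2 intron and 1 LGALS9 flank peak. The HHLA2 peak was called in both libraries with summits 54 bp apart, so its 2 windows differed. The ISRE core bound by IRF proteins, GAAA followed after any 2 bases by GAAA, was near 2 control and 3 IFN-γ summits, against 4.07% and 7.96%. A match describes the letters in these windows only, and these motifs are short enough to occur by composition: in windows 1 kb from the summits of all peaks TTCNNNGAA was found in 5.70% (control) and 5.82% (IFN-γ).

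The promoters themselves differed in a feature that the choice of genes did not use. By the ratio of observed to expected CpG in the 500 bp either side of the main TSS, coding genes were split into 3 classes of equal size. PDCD1LG2, VTCN1, HHLA2, LGALS9, CD80 and CD86 fell in the lowest class, CD274, CD276, PVR and NECTIN2 in the middle class and none in the highest. Over all coding genes, a peak within 3 kb of the main TSS was found in the control and IFN-γ libraries at 19.5% and 21.1% of the lowest class, 69.9% and 65.3% of the middle class and 82.7% and 75.8% of the highest class. Of the 6 CpG-poor checkpoint ligands, PDCD1LG2 and CD80 had such a peak in both libraries. Of the 4 in the middle class, 3 had one without IFN-γ and 4 with it. The PDCD1LG2 promoter, with an observed to expected ratio of 0.114, stood at percentile 2.85 of coding genes. None of the 10 promoter windows held an FLI1 octamer, which 14.1% of all coding promoters did.

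**Figure D3:**
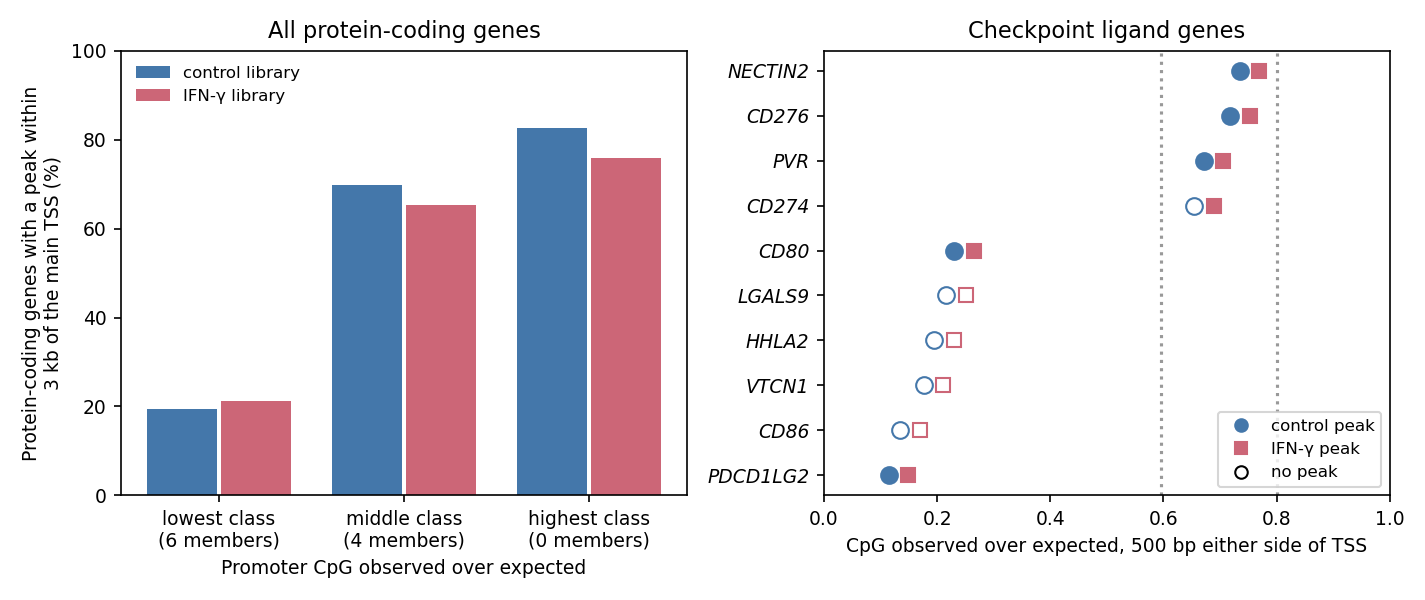
Left, bars give the share of all protein-coding genes with a peak within 3 kb of the main TSS by class of promoter CpG content, for each library. Right, each checkpoint ligand gene is placed by its CpG ratio, with filled symbols where a peak was called (the IFN-γ squares are shifted right for legibility, and dotted lines are the class limits). PDCD1LG2 (0.114) and CD80 (0.230) are the genes with a peak in the lowest class.

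Other genes of the same pathways were counted for context. Of 20 further co-signalling ligands, 9 had a promoter peak in control cells, 11 after IFN-γ and 8 in both, against 61.9%, 59.7% and 56.0% of coding genes. Those with the strongest control peaks were NCR3LG1, a ligand of the NK cell receptor NKp30 (fold enrichment 17.6 in the control and 10.8 in the IFN-γ library), CD58, the ligand of CD2 (11.9 and 7.55), and NECTIN3, an adhesion molecule (12.7 and 4.70). Their fragments, not scaled for depth, were 38 and 48 (NCR3LG1), 33 and 34 (CD58) and 25 and 17 (NECTIN3). The local background was 1.22 and 3.54, 1.86 and 3.64, and 1.06 and 2.83. At NCR3LG1 and CD58 the lower fold enrichment with IFN-γ thus came without fewer fragments before scaling. The strongest IFN-γ peaks of this list, named after their values were seen, were at CD70, the ligand of CD27 (4.65 and 13.9, at different sites in the libraries), and NECTIN1, an adhesion molecule (9.87 and 15.0). Of 14 receptors of these ligands, 2 had a promoter peak in each library and 1 in both, also against 61.9%, 59.7% and 56.0%. HAVCR2, which encodes TIM-3, was called in both (6.84 and 10.3), CD160 in the control library only and CTLA4 in the IFN-γ library only.

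Of 20 known regulators of PD-L1, 19 had a promoter peak in each library and 18 in both, against the same 61.9%, 59.7% and 56.0%. Like the lists above, this one was written with earlier results of these data known, and it was not matched for promoter CpG. In the highest CpG class of all coding genes, 82.7% (control) and 75.8% (IFN-γ) had a peak within 3 kb of the main TSS. Strong peaks were found at JUN and RELA. JUN, which encodes an AP-1 subunit, had 109 fragments in the control and 177 in the IFN-γ library (fold enrichments 52.0 and 33.9). The local background at JUN was 1.11 and 4.26, so the lower fold enrichment with IFN-γ does not show fewer fragments. RELA, which encodes an NF-κB subunit, had 61 and 55 fragments (21.2 and 13.2). At the promoters of the 10 checkpoint ligands the fold enrichment reached at most 18.0 in the control and 16.2 in the IFN-γ library, so JUN and RELA carried higher fold enrichments than the ligand genes in the control library, and JUN did so in the IFN-γ library.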

How the data were processed

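Flag ChIP-seq peaks of HK1 cells were analysed from 2 libraries (control and IFN-γ). Per the methods and labels, the authors trimmed reads with cutadapt 1.18, dropping reads under 35 bp, used Bowtie2 2.3.4.1 with the GRCh38 genome for alignment, treated duplicates with Picard and called peaks in each library with MACS2 2.1.2 at a p-value cutoff of 0.01. The lowest deposited −log10 q was 1.30 and 1.32. Filters on mapping quality and the use of the 2 input libraries in calling are not given in the sources used here. For each peak the authors deposited a fold enrichment ratio, −log10 p and −log10 q at the summit, positions, and a display score, which was not used.

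The summit pileup and background were recovered from the deposited fold enrichment and −log10 p (largest relative error 6.21e-06; recovery, overlap and motif search were tested on simulated data). Pileups were compared after division by 1.46, the ratio of the lowest backgrounds, with exact conditional binomial intervals. Shares have Clopper-Pearson intervals. Peaks were assigned to genes of GENCODE 44 by overlap of at least 1 bp, promoter first, then gene body, then flank. Where a control peak paired with an IFN-γ peak, at least 1 bp was shared. Libraries were grouped by the treatment label. Python 3.11.15, scipy 1.17.1, pandas 2.3.3, pysam 0.24.0 and samtools 1.23.1 were used.

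The 10 genes and the lists were chosen with earlier results of these data known. All 10 genes are named, with each promoter and gene body peak, the strongest flank peaks, peaks near 2 of the genes, and for the other lists the 3 genes with the strongest control promoter peak. Some results that this rule covers are not reported here. Alternatives were q-value cutoffs, lists of equal length, other windows, TSS sets, overlap rules, depth scales, motifs and ranking by fold.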

Additional observations from a re-analysis of the deposited data

How the results depend on the processing

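No paired analysis was possible because there was a single library for each treatment, and so no replicate could be left out either. The 4 ratios whose interval left out 1 kept their direction under each depth scale, and by deposited fold enrichment they were 2.52 (PDCD1LG2 promoter), 0.462 (CD276 promoter), 3.02 (CD276 flank) and 2.15 (PVR flank). Of the 22 pairs, 6 lay on the other side of 1 by fold enrichment, all with intervals that included 1 (CD80 promoter and flank, the VTCN1 flank, the PVR promoter in intron 1 and its flank peak 48.4 kb away, and NECTIN2 1.54 kb upstream). At q below 1e-05 the IFN-γ library kept promoter peaks at 4 genes (PDCD1LG2, CD276, PVR and CD86) and gene body peaks at 3, with 15 shared control and 14 shared IFN-γ peaks. With the IFN-γ list shortened to the length of the control list, the same 4 genes had promoter peaks, 3 had gene body peaks and 15 IFN-γ peaks were shared. CD274, NECTIN2 and CD80 are thus called at promoters of the IFN-γ library only by its weaker peaks. With a 10 kb flank there were 17 control and 17 IFN-γ peaks, of which 14 and 13 were shared. With a 100 kb flank there were 58 and 65, of which 47 and 46 were shared. When sharing also required summits within 100 bp, 17 control and 17 IFN-γ peaks were shared, and the median ratio was 0.995. The core GGAA in place of the octamers was near 28 control and 33 IFN-γ summits, and the joint motif of GGAA, any base and TGANTCA, chosen after the data were seen, near 1 control summit. Counting the main TSS alone removed CD86 from the promoter calls, and a 1 kb promoter removed CD80. Depth limits the rest: a summit at the median held 16 or 22 fragments, so a ratio near 1 at a weak peak does not show equal binding.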
